A study of Mus musculus with 10 samples.

Results

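The genes described here are 10 standard labels of the epithelial and the mesenchymal state, and they were taken by name from the 31053 genes that the count files list. Krt8 and Krt18 are the keratin pair of simple (luminal) epithelium, and Krt5 and Krt14 are the pair of basal epithelium. Epcam and Cdh1 (E-cadherin) are adhesion molecules of epithelial cells, and Gata3 is a transcription factor of luminal mammary cells and of T cells. Cdh2 (N-cadherin), the intermediate filament gene Vim and the transcription factor Zeb1 label the mesenchymal state. UMIs (unique molecular identifiers, each marking 1 captured RNA molecule) of these genes were summed per library and cell class over those barcodes in which between 200 and 7000 genes were detected and mitochondrial UMIs did not exceed 10%.

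The cells came from tumors that E0771 cells, a C57BL/6 mouse mammary carcinoma line, had formed by day 21 in a mammary fat pad. The hosts were female C57BL/6 mice injected at 16 weeks of age. WT mice were littermates of EC-AGO1-KO mice, which carried AGO1 flox/flox alleles and a Cre recombinase under the VE-Cadherin promoter, so that the deletion concerns endothelial cells of the host and not the injected tumor cells. There were 10 libraries, 5 per group, with 1 of each group in batch 1 and 4 of each in batch 2. The 5 KO libraries held 7 tumors, because KO 2+3 and KO 5+6 each pooled 2 small tumors.

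Carcinoma cells can move from an epithelial state, with keratins and E-cadherin junctions, toward a mesenchymal state with vimentin and N-cadherin, a change called epithelial-mesenchymal transition. Zeb1 is known as a repressor that binds the E-box sequences CACCTG and CAGGTG in the promoters of epithelial genes, Cdh1 among them. Many carcinoma lines stay between these states and keep some keratin beside vimentin. In the normal mammary gland, luminal cells carry Krt8, Krt18 and Gata3, and basal cells carry Krt5, Krt14 and the transcription factor Trp63.

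Promoter sequences (RefSeq, GRCm38.p6) were read for 7 of the 10 genes, and those of Cdh1, Cdh2 and Zeb1 were not searched. The E-box CACCTG, which reads CAGGTG on the other strand, was searched on both strands in the 250 bases before the RefSeq start of each gene. It was found in 4 of the 7 promoters, those of Krt8, Krt18, Krt5 and Epcam, and in 17.2% of 32851 promoters searched in the same way. The 30 bases around each match in Krt18, Krt5 and Epcam are shown, on the strand of the gene and with the E-box in capitals. Krt8, also an epithelial gene of the list and the keratin found in tumor-like cells, holds CACCTG as well, and its bases are not printed. A match of letters is a description of the sequence and not a measured site.
Krt18, chr15:102027990-102028019, plus strand: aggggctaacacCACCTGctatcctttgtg
Krt5, chr15:101713016-101713045, minus strand: cacaccactgtgCAGGTGtgctgggtgagc
Epcam, chr17:87635780-87635809, plus strand: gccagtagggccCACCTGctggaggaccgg
Epcam, chr17:87635948-87635977, plus strand: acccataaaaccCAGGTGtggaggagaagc
The first base of the E-box lay 111 bases before the start in Krt8, 214 in Krt18, 128 in Krt5, and 187 and 19 in Epcam.

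The libraries held 8323896 to 10591577 UMIs, and 65298 barcodes passed as cells. Batch 1 had few and deep cells, with a median of 4049 UMIs per cell in WT and 3862 in KO, whereas the medians of batch 2 lay between 595 and 1142. Cells were clustered without the 10 genes and clusters were named from marker lists that hold none of them, so the classes are rebuilt and are not the authors' annotation. Tumor-like cells were 55295 cells, T-like cells 854 and epithelial-like cells 435. A further 5210 cells stayed unnamed, among them clusters led by the tumor gene Pvt1 that did not meet the rule for a name. Another unnamed cluster, of 521 cells, had the T markers Gzmb and Skap1 raised. Some 532 barcode sequences were kept in more than 1 library (1.63% of cells). Ago1, the deleted gene, had 0 UMIs in the 82 endothelial-like cells of WT and in the 130 of KO, which allows up to 42.4 and 33.1 UMIs per 1000000 UMIs, so these files give no check of the deletion. Levels are given as CPM, the UMIs of a gene per 1000000 UMIs of the same cells. They come from a 3′ kit and are not divided by length, so each gene is compared with itself across cells and not with another gene. Background was read from barcodes with at most 50 UMIs, called empty droplets here, which hold free RNA.

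Over pooled tumor-like cells, Vim, Zeb1 and Krt8 stood above the empty droplets and the other 7 genes were close to absent. The class rested on Pvt1, Fmnl2, Cdh13, Myc and Aebp1, and the 18 epithelial markers used for naming summed to 70.3 CPM in it, with Cldn3 and Cldn4 at 0. Vim stood at 2351 CPM over the batch 2 tumor-like cells and at 3716 in batch 1, against 1311 and 1438 in empty droplets. Zeb1 stood at 317 and 206 CPM, against 126.5 and 52.1. Krt8 stood at 56.2 and 168, against 42.6 and 58.4. Zeb1 was above the empty droplets of its own library in each of the 10 libraries. Krt8 was not in WT 1 (47.1 against 55.5) and WT 4 (52.9 against 73.5) and barely so in WT 5 (51.5 against 51.0), and Vim was not in WT 1 (1801 against 1810). Tumor-like cells held 95.6% of the Krt8 UMIs and 91.4% of the Vim UMIs of all kept cells. The source of the free RNA was not tested, so a level near it does not show absence. Krt8 differed 3-fold between batches in the same cell line, and batch, depth and sequencer cannot be told apart here.

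The other 7 genes lay at or below the empty droplets in the tumor-like cells of batch 2, and such values are not read as expression. Gata3 had 1.54 CPM there, against 27.3 in empty droplets. Cdh1 had 1.19 against 27.5, and Cdh2 had 1.26 against 39.5. Epcam had 0.474 against 10.4. Krt18, Krt5 and Krt14 had 0.0206, 0.103 and 0.144 against 1.55, 2.78 and 1.55. Krt18 had 3 UMIs in all 55295 tumor-like cells (0.05 CPM, exact 95% Poisson interval 0.0103 to 0.146, counting error only), although its partner Krt8 had 4662. In batch 1, Gata3, Krt5 and Cdh2 had 0 UMIs in 1207 tumor-like cells, which allows up to 0.262 CPM. E-cadherin and N-cadherin were thus both undetectable above background in these cells at this depth.

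The low Krt8 level of the tumor-like cells was not shared by immune cells. Of 54088 batch 2 tumor-like cells (median 712 UMIs), 4.72% had a Krt8 UMI, and of 740 T-like cells (median 358.5 UMIs) 0 had one. With every cell thinned to 300 UMIs, which left out 3890 tumor-like and 185 T-like cells, the tumor-like share was 1.82% for Krt8, against 0 of 555 T-like cells, which allows up to 0.541%, and 0.179% of 1117 myeloid-like cells (331 shallower ones left out). In the same thinned cells, Vim was found in 46.9% of tumor-like and 13.2% of T-like cells, and Zeb1 in 8.53% and 8.47%. The Zeb1 shares of both classes were close, whereas Krt8 and Vim were more frequent in the tumor-like cells.

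**Figure D1:**
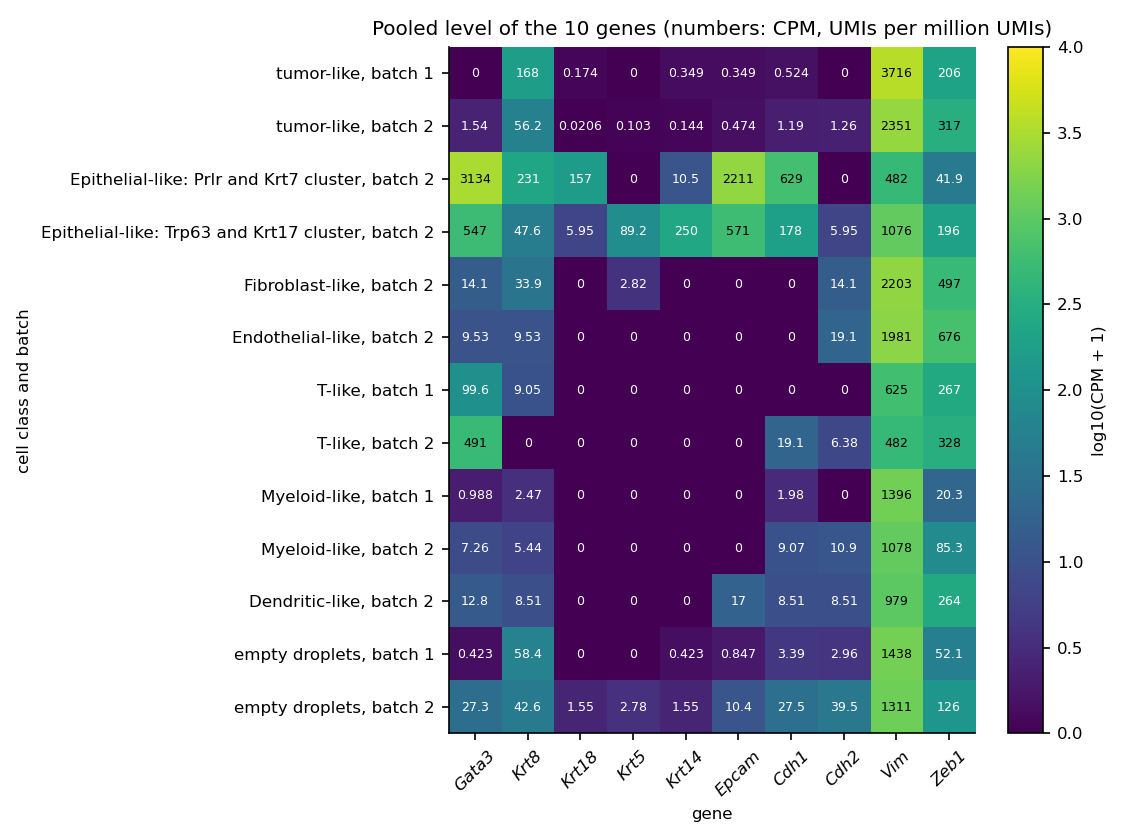
Pooled level of the 10 genes (columns) in cell classes and in empty droplets (rows), as CPM printed in each cell and as log10(CPM + 1) by color. The tumor-like rows are high for Vim (2351 and 3716), Zeb1 (317 and 206) and Krt8 (56.2 and 168), and the epithelial-like rows for Gata3, Epcam and Cdh1.

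Across classes of batch 2, each gene had its own order. Krt8 was highest in epithelial-like cells (114 CPM), followed by tumor-like cells (56.2) and fibroblast-like cells (33.9, 12 UMIs), which overlapped over libraries. It was under 10 CPM in the other named classes. The fibroblast-like level lay under the 42.6 CPM of empty droplets. Gata3 stood at 1483 CPM in epithelial-like cells and 491 in T-like cells, whose ranges over libraries with at least 10 cells of the class (765 to 2359 and 131 to 703) did not overlap, and under its empty-droplet level in the others. Epithelial-like cells of WT 3 (6 cells, 2 UMIs) and WT 1 (8 cells, 4 UMIs) had 506 and 751 CPM of Gata3. Cdh1 stood at 341 CPM in epithelial-like cells and under its empty-droplet level in the other named classes. Vim was highest in tumor-like cells (2351 CPM), fibroblast-like cells (2203) and endothelial-like cells (1981), and the ranges over libraries of these classes overlapped. Myeloid-like cells (1078), dendritic-like cells (979), epithelial-like cells (861) and T-like cells (482) followed, each under the 1311 CPM of empty droplets. Zeb1 was highest in endothelial-like cells (676 CPM) and fibroblast-like cells (497), ahead of T-like cells (328), tumor-like cells (317) and dendritic-like cells (264). The ranges over libraries among these 5 classes overlapped. Zeb1 was low in epithelial-like cells (140) and myeloid-like cells (85.3), the latter under the 126.5 CPM of empty droplets. Cdh2 was under its empty-droplet level in every named class, with 19.1 CPM in endothelial-like cells as the highest, and stood above it in an unnamed cluster led by the mural genes Rgs5 and Timp1 (192 CPM, 30 UMIs in 260 cells).

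Among the tumor-like clusters of batch 2, which were built without these genes, Krt8 was high in 1 cluster. It stood at 149 CPM (exact 95% Poisson interval 130 to 170) in 2615 cells led by Clu, F2r and Rpl29, and between 41.3 and 70.9 in the 9 other clusters of batch 2. Vim varied less, between 2147 and 3232 CPM over these 10 clusters. Zeb1 varied from 166 CPM in a cluster led by Insig1 and Pxdc1 to 438 in one led by Pvt1 and Slc25a13. In the cluster high in Krt8, Vim (2966) was above and Zeb1 (251) below their levels in tumor-like cells as a whole. These levels describe clusters and carry no test.

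The wider programs were counted in the same cells. Of 27 genes of an epithelial program (keratins, claudins, junction and splicing genes), 3 reached 50 CPM in tumor-like cells, the junction genes Tjp1 (411), Ctnna1 (339) and Ctnnb1 (79.4), and 13 did so in epithelial-like cells. The claudins Cldn3 and Cldn4 had 0 UMIs in tumor-like cells. Of 27 genes of a mesenchymal program, 11 reached 50 CPM in tumor-like cells and 10 in epithelial-like cells. The highest in tumor-like cells were the repressor Zeb2 (714), the transcription factor Tcf4 (613), the integrin Itgb1 (494) and the hyaluronan receptor Cd44 (225). Other members of the mesenchymal program were close to absent, with Fn1 (fibronectin) at 0.866 and the repressor Snai2 at 0.133 CPM.

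Whether Krt8 and the mesenchymal genes were found in the same tumor-like cells was tested with libraries as the samples. Each cell was thinned to 500 UMIs, so that deeper cells did not hold more genes for that reason, which left out 9718 WT and 6843 KO cells and kept 20842 and 17892. Krt8, Vim and Zeb1 were each found in at least 1% of tumor-like cells of the median library and were paired, which gave 3 pairs. As means over the 10 libraries, 72.3% of cells with a Krt8 UMI also had a Vim UMI, and 64.6% of cells without one did. In this thinning, the share with Vim was higher among Krt8 cells in 10 of 10 libraries. In WT libraries the difference was 10.1 points in batch 1 and 9.34, 11.8, 8.80 and 7.81 points in WT 1, 3, 4 and 5. In KO libraries it was 5.46 points in batch 1 and 7.40, 2.78, 5.44 and 8.27 points in KO 1, 2+3, 4 and 5+6. The mean difference was 7.72 points ± 2.61 (SD, n = 10), with p = 0.001953 in an exact two-sided sign-flip permutation test, the smallest that 10 libraries can give, and 0.005859 after Benjamini-Hochberg adjustment over the 3 pairs. Within batch 2 alone it was 7.71 points (exact permutation p = 0.007812, the smallest possible there). Under other random thinnings to 500 UMIs, chosen after seeing the data, the share was higher in 8 and in 9 of 10 libraries. The exact permutation p was 0.0137 and 0.0176 there (adjusted 0.041 and 0.026). As a mean over libraries, a Vim UMI was therefore found more often in cells with a Krt8 UMI than in cells without one. That each WT and each KO library showed it depended on the thinning.

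Neither pair with Zeb1 gave a stable difference. As means over libraries, Zeb1 was found in 11.6% of cells with and in 12.4% of cells without a Krt8 UMI, a difference of -0.88 points (exact permutation p = 0.338, adjusted 0.338) that was lower in 7 and higher in 3 libraries. Vim was found in 62.8% of cells with and 65.2% of cells without a Zeb1 UMI, a difference of -2.33 points ± 2.54 (SD, n = 10, exact permutation p = 0.0195, adjusted 0.0293). With cells thinned to 300 UMIs that difference was 0.05 points (exact permutation p = 0.986), and with another random thinning to 500 UMIs, chosen after seeing the data, it was -0.67 points (exact permutation p = 0.723). A further such thinning gave -1.87 points (exact permutation p = 0.0078, adjusted 0.0234). Batch 2 alone gave -2.64 points in the main thinning, higher in 0 of 8 libraries (exact permutation p = 0.0078, adjusted 0.0117). The size of this difference thus varied with the thinning.

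**Figure D2:**
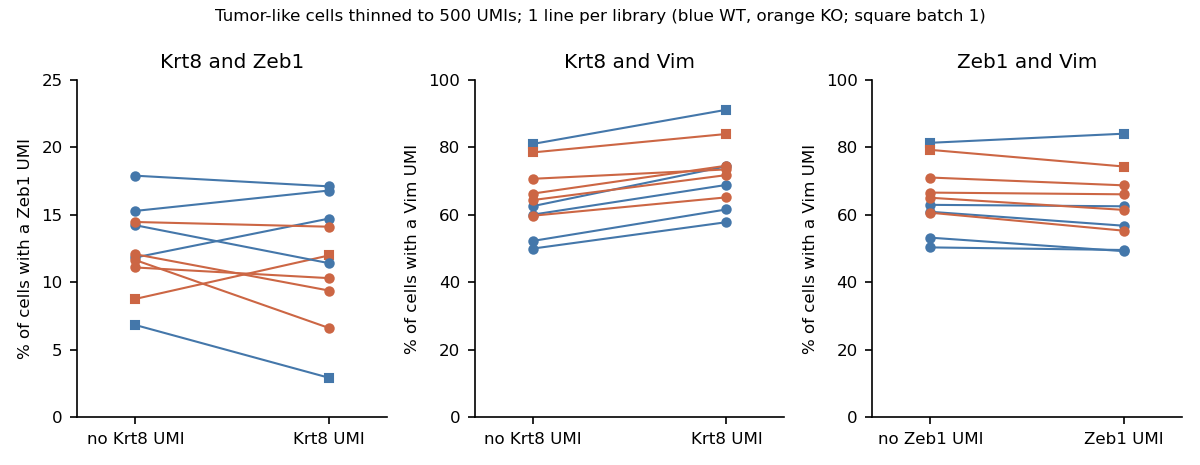
Percent of tumor-like cells with a UMI of the second gene, among cells without (left) and with (right) a UMI of the first gene, for 3 pairs after thinning to 500 UMIs, with 1 line per library, WT in blue, KO in orange and batch 1 as squares. All 10 lines rise for Krt8 and Vim, while those for Krt8 and Zeb1 go both ways.

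Cells with epithelial genes were searched for among the tumor-like cells. A UMI of any of Krt18, Krt5, Krt14, Epcam, Cdh1 or Gata3 was found in 168 of 55295 tumor-like cells (0.304%, median 722 UMIs), and UMIs of at least 2 of these genes in 3 cells. In myeloid-like cells, which should lack these genes, 0.606% had any of them (median 412 UMIs), and the depths of both classes were not matched here. Of the 168 tumor-like cells 72.0% had a Vim UMI, beside 72.4% of all tumor-like cells. Among epithelial-like cells, 58.2% had a UMI of at least 1 and 29.4% of at least 2 of the 6 genes.

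Epithelial-like cells fell into 2 clusters, both from batch 2, and the clusters split the genes into those known from luminal and those known from basal cells. A cluster of 134 cells named from Prlr, the prolactin receptor, and Krt7 held the luminal genes. In it Gata3 stood at 3134 CPM (exact 95% Poisson interval 2789 to 3510), Epcam at 2211, Cdh1 at 629, Krt8 at 231 and Krt18 at 157. Krt5 had 0 UMIs and Krt14 had 1 UMI there. A cluster of 301 cells named from Trp63 and Krt17 held the basal keratins, with Krt14 at 250 (180 to 338) and Krt5 at 89.2 (49.9 to 147) CPM. Krt18 had 1 UMI in it and Krt8 had 8. The Trp63 and Krt17 cluster also held Gata3 (547), Epcam (571) and Cdh1 (178), each lower than in the Prlr and Krt7 cluster, with Poisson intervals that did not overlap. The intervals cover counting error only.

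Vim and Zeb1 were the reverse of the luminal genes in these clusters. Vim stood at 1076 CPM in the Trp63 and Krt17 cluster and at 482 in the Prlr and Krt7 cluster, and Zeb1 at 196 and 41.9. The tumor marker Pvt1 moved with them, at 4209 and 1740 CPM, against 2585 in batch 2 empty droplets. Both Vim values lay under the 1311 of empty droplets, and the part of free tumor RNA in these values was not tested.

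**Figure D3:**
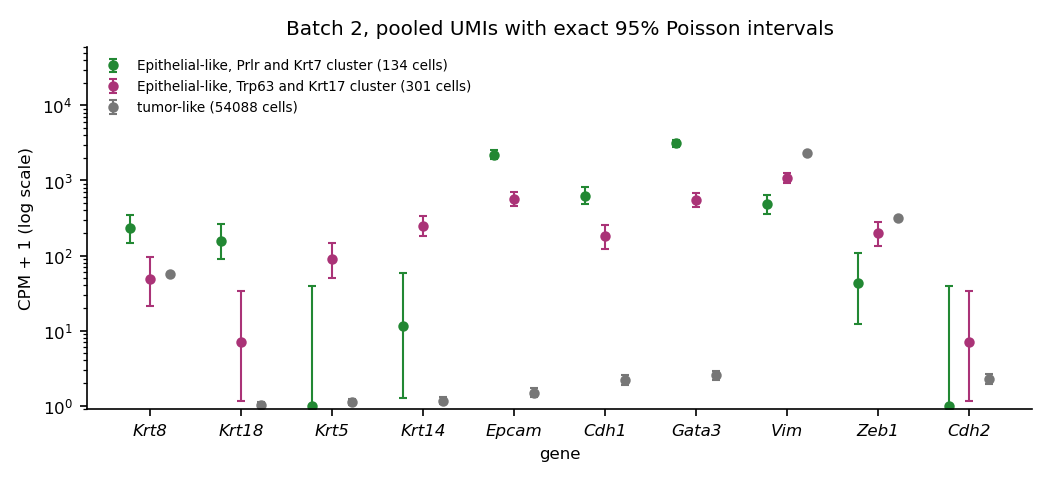
Level of each gene in the 2 epithelial-like clusters and in tumor-like cells of batch 2, as pooled CPM + 1 on a log axis, with exact 95% Poisson intervals. Krt8 and Krt18 are higher in the Prlr and Krt7 cluster (231 and 157), Krt5 and Krt14 in the Trp63 and Krt17 cluster (89.2 and 250), and 7 of the 10 genes lie near 0 in tumor-like cells.

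The genes of most similar pattern over 12 profiles of class and batch, among 7263 genes, were named by Pearson's r as a description without a test. The profiles share libraries and depth. Gata3 was most like Tox2 (r = 0.97), Ikzf4 (0.93) and Gprin3 (0.90), the latter pair highest in T-like cells. Vim was most like Rbms1 (0.96), Tubb6 (0.95) and Gm14005 (0.95), and Zeb1 like Gpatch8 (0.87) and Iws1 (0.84). Krt8 was most like Me1, Cul1 and Ank3 (0.95 to 0.97), and Epcam like Fam84a, Esrp1 and Tfap2b (0.96 to 0.97). Cdh1 was most like Lgr6, Fcgbp and 5330417C22Rik. Those nearest to Krt5 (Ptn, Krt18 and Krt19), Krt14 (Krt18, Aqp5 and Stc2) and Krt18 (Krt14, Krt19 and Stc2) share a single high profile, the epithelial-like cells. Those nearest to Cdh2 (Tbc1d30, Sri and Klk1) rest on its 4 UMIs in the dendritic-like cells of batch 1.

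The first comparison of WT with KO asked whether tumor-like cells differed in these genes when the endothelium of the host lacked AGO1. Of 12886 genes tested by edgeR with batch as a covariate, 0 (0%) passed an adjusted p of 0.05, by DESeq2 0 as well, and 688 (5.34%) had an unadjusted p under 0.05. Of the 10 genes, 6 passed the filter on low counts and 0 were called. Krt18, Krt5, Krt14 and Epcam had 3, 5, 11 and 27 UMIs and were not tested.

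Vim, the main intermediate filament of mesenchymal cells, stood in WT tumor-like cells at 3780 CPM in batch 1 and at 1801, 2572, 2420 and 1608 in WT 1, 3, 4 and 5. In KO it stood at 3641 in batch 1 and at 2628, 2974, 2386 and 2841 in KO 1, 2+3, 4 and 5+6. The groups overlapped, and batch 1 was above batch 2 in both. The KO minus WT difference was 0.21 ± 0.15 (SE) on the log2 scale (edgeR adjusted p = 0.90).

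Krt8 stood in WT at 172 CPM in batch 1 and at 47.1, 59.1, 52.9 and 51.5 in WT 1, 3, 4 and 5. In KO it stood at 165 in batch 1 and at 83.6, 57.0, 43.2 and 56.2 in KO 1, 2+3, 4 and 5+6. The groups overlapped in batch 2, and within batch 1 both libraries were alike. The difference was 0.07 ± 0.16 (SE, log2, edgeR adjusted p = 0.97), and it was -0.10 without KO 1.

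Zeb1 stood in WT at 204.5 CPM in batch 1 and at 419, 294, 349 and 330 in WT 1, 3, 4 and 5. In KO it stood at 207.5 in batch 1 and at 247, 269, 343.5 and 257 in KO 1, 2+3, 4 and 5+6. Only KO 4 of the batch 2 KO libraries reached into the WT range. The difference was -0.32 ± 0.12 (SE, log2), with an unadjusted p of 0.018 and an edgeR adjusted p of 0.88, so it was not called.

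Cdh2 had 0 UMIs in both batch 1 libraries. In batch 2 it stood at 0.436, 1.07, 0.801 and 0.652 CPM in WT 1, 3, 4 and 5 and at 1.61, 1.78, 1.87 and 2.34 in KO 1, 2+3, 4 and 5+6. The batch 2 groups did not overlap, but every value lay below the empty droplets of its library. The empty droplets split in the same direction, with 22.0, 43.0, 18.7 and 16.6 CPM in WT and 57.2, 53.0, 50.2 and 48.9 in KO, and their part in the Cdh2 difference was not tested. The difference was 1.28 ± 0.40 (SE, log2, unadjusted p = 0.0050, edgeR adjusted p = 0.88). Cdh1 (0.77 ± 0.41) and Gata3 (0.16 ± 0.40), also under the empty droplets of batch 2, had edgeR adjusted p = 0.88 and 0.98. With Zeb1 and Cdh2, 2 of 6 tested genes had an unadjusted p under 0.05, beside the 5.34% of all genes.

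**Figure D4:**
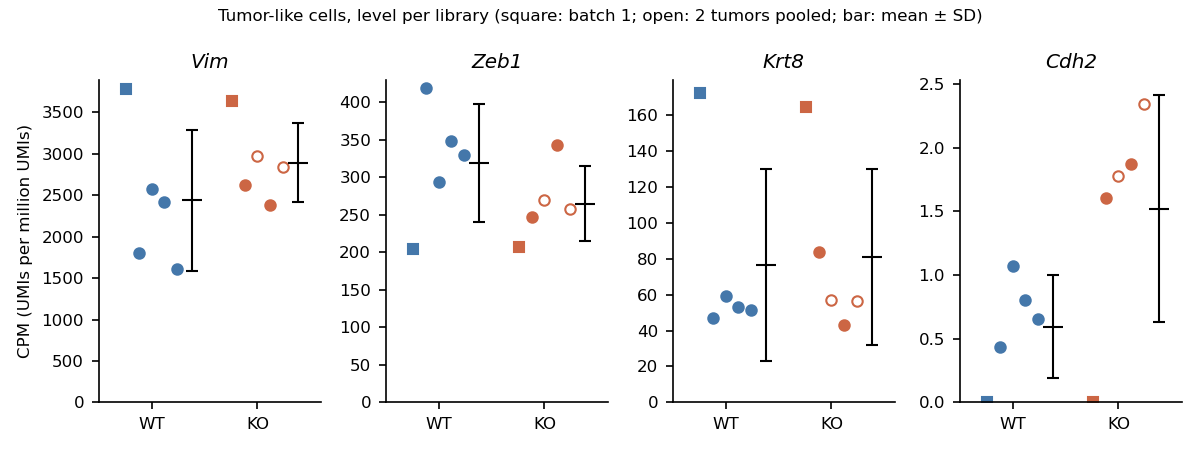
CPM of Vim, Zeb1, Krt8 and Cdh2 in the tumor-like cells of each library, with batch 1 as squares, pooled tumors as open circles and bars for the mean ± SD of 5 libraries. WT and KO overlap for Vim, Zeb1 and Krt8, and Cdh2 stays at or under 2.34 in each library.

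The lists of both programs behaved likewise in tumor-like cells. Of the epithelial program, 9 of 27 genes were tested and 0 passed, with 6 higher and 3 lower in KO and a median difference of 0.15 (log2), beside -0.0035 over all genes tested. Of the mesenchymal program, 22 of 27 were tested and 0 passed, with 11 in each direction and a median of -0.0049. Of its 5 genes with an unadjusted p under 0.05, 2 were higher and 3 lower in KO. Tcf4 stood at 649 ± 198 CPM in WT and 563 ± 156 in KO (SD, n = 5 each), a difference of -0.27 ± 0.12 (SE, log2) with an edgeR adjusted p of 0.88.

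In T-like cells, where Gata3 directs the T helper 2 program and is also carried by regulatory T cells, Gata3 was measured over 854 cells and 176 UMIs. It stood in WT at 98.1 CPM in batch 1 and at 315, 430.5, 131 and 471 in WT 1, 3, 4 and 5. In KO it stood at 101 in batch 1 and at 405, 491.5, 703 and 673.5 in KO 1, 2+3, 4 and 5+6. The 3 highest values were of KO libraries, but WT 5 and WT 3 lay above KO 1, and the groups overlapped. The difference was 0.45 ± 0.31 (SE, log2, edgeR adjusted p = 0.91). Of 918 genes tested 0 (0%) were called and 41 (4.47%) had an unadjusted p under 0.05. The 2 batches differed by more than the groups, with 99.6 against 491 CPM over pooled cells. They also held different T-like clusters, since batch 1 gave all 112 cells of a cluster led by Gzma, Cd3d and Nkg7 and 2 of the 742 cells of the cluster led by Ikzf2, Tox and Ctla4.

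Of the 10 genes, 3 were tested in T-like cells and 0 were called. Vim stood at 758 ± 96.8 CPM in WT and at 475 ± 223 in KO (SD, n = 5 each). The difference was -0.73 ± 0.25 (SE, log2, unadjusted p = 0.0047, edgeR adjusted p = 0.55). Without a filter on low counts it was -0.46 ± 0.32 (SE, log2, edgeR unadjusted p = 0.147). Vim values of WT libraries ran from 610 to 875 and those of KO libraries from 295 to 847, where KO 1 lay within the WT range. Over pooled batch 2 T-like cells Vim (482) lay under the 1311 CPM of empty droplets. Free Vim itself stood in the empty droplets at 1633 in WT and 1226 in KO of batch 1, and from 1033 to 1963 in WT and from 973 to 1190 in KO of batch 2, and its part in the difference was not tested. The tumor marker Pvt1, read as a sign of tumor RNA, stood in batch 2 T-like cells between 785 and 933 CPM in WT and between 758 and 1288 in KO. Zeb1, which T cells also carry, differed by -0.05 ± 0.31 (SE, log2, edgeR adjusted p = 0.98). Of 18 T helper genes, 15 had UMIs in T-like cells, led by Il2ra (359 CPM), Maf (342) and Bcl11b (296), and the Th2 cytokines Il4, Il5 and Il13 had 0. A total of 3 of the 18 were tested, 0 passed and 3 were lower in KO, with a median of -0.14 (log2) beside -0.042 over all genes.

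In epithelial-like cells 2 WT and 4 KO libraries of batch 2 held at least 10 cells. Gata3 stood at 765 and 2313 CPM in WT 4 and 5 and at 1148, 2170, 1595 and 2359 in KO 1, 2+3, 4 and 5+6. Epcam stood at 962 and 991 in WT and at 1110, 735, 2340 and 1515 in KO, and Cdh1 at 240.5 and 275 in WT and at 273, 245, 957 and 454 in KO. WT 4 lay below the KO range for Gata3 and Cdh1, and the other WT values lay inside it. The differences were 0.34 ± 0.37, 0.40 ± 0.36 and 0.54 ± 0.46 (SE, log2) with edgeR adjusted p of 0.91, 0.89 and 0.89. Of 1008 genes tested 0 (0%) were called and 67 (6.65%) had an unadjusted p under 0.05. Vim (-0.22 ± 0.34) and Zeb1 (-0.93 ± 0.87, with 0 UMIs in WT 5 and KO 2+3) were tested too, and Krt8, Krt18, Krt5, Krt14 and Cdh2 were too sparse. The tumor marker Pvt1 moved with the group in these cells, at 4591 and 6663 CPM in WT 4 and 5 and at 2795, 2555, 2446 and 2727 in KO 1, 2+3, 4 and 5+6, and its part in these differences was not tested. Over pooled WT cells, 71 lay in the Trp63 and Krt17 cluster and 42 in the Prlr and Krt7 cluster. In KO, 230 and 92 did. Per library, the Trp63 and Krt17 cluster held 49 of 75 and 14 of 24 epithelial-like cells in WT 4 and 5. In KO 1, 2+3, 4 and 5+6 it held 141 of 182, 37 of 50, 10 of 15 and 42 of 75. The shares of WT and KO libraries overlapped.

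Over whole libraries, which do not depend on the rebuilt classes, Gata3 gave the clearest difference of the 10 genes. In WT it stood at 1.36 CPM in batch 1 and at 6.54, 5.93, 7.25 and 9.19 in WT 1, 3, 4 and 5. In KO it stood at 2.10 in batch 1 and at 23.9, 30.6, 10.5 and 26.2 in KO 1, 2+3, 4 and 5+6. Each KO library was above each WT library of its batch. Gata3 in the empty droplets of batch 2 split in the same direction, with 12.7, 21.5, 21.0 and 10.7 CPM in WT and 44.0, 33.0, 33.5 and 36.7 in KO, and the part of free RNA in the difference was not tested. The difference was 1.47 ± 0.26 (SE, log2, unadjusted p = 4.2e-05) and was not called by edgeR (adjusted p = 0.40). It was called by DESeq2 (1.43, adjusted p = 0.0090) and by edgeR without KO 4 (1.67, adjusted p = 0.0075), and by edgeR without a filter on low counts (1.43, adjusted p = 9.5e-10), so the call depends on the tool, the filter and 1 library.

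The Gata3 UMIs of whole libraries came mostly from few cells. Of 824 Gata3 UMIs, 47.5% lay in epithelial-like cells, which were 0.666% of all cells, 21.4% in T-like cells (1.31% of cells), 20.3% in unnamed cells and 9.10% in tumor-like cells (84.7% of cells). Epithelial-like cells made up 0.0785%, 0.0755%, 0.798% and 0.386% of cells in WT 1, 3, 4 and 5 and 2.18%, 0.759%, 0.208% and 1.04% in KO 1, 2+3, 4 and 5+6, with 0 in batch 1. T-like cells made up 5.46% of cells in KO 2+3 and 0.245% to 0.982% in the other batch 2 libraries. Without the epithelial-like cells the Gata3 difference was 1.13 (log2, edgeR adjusted p = 0.50), and without epithelial-like and T-like cells it was 0.63 (edgeR adjusted p = 0.61). Unnamed cells stayed in both fits. They held a cluster of 521 cells (125 WT, 396 KO) led by Gm2682, Mcpt4 and Skap1, with the T markers Gzmb and Skap1 raised. At resolution 0.5 a T-like cluster held 1268 cells, against 742 at resolution 1. The part of these cells in the difference was not tested. More cells of a type and more Gata3 RNA per cell cannot be told apart in whole libraries.

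**Figure D5:**
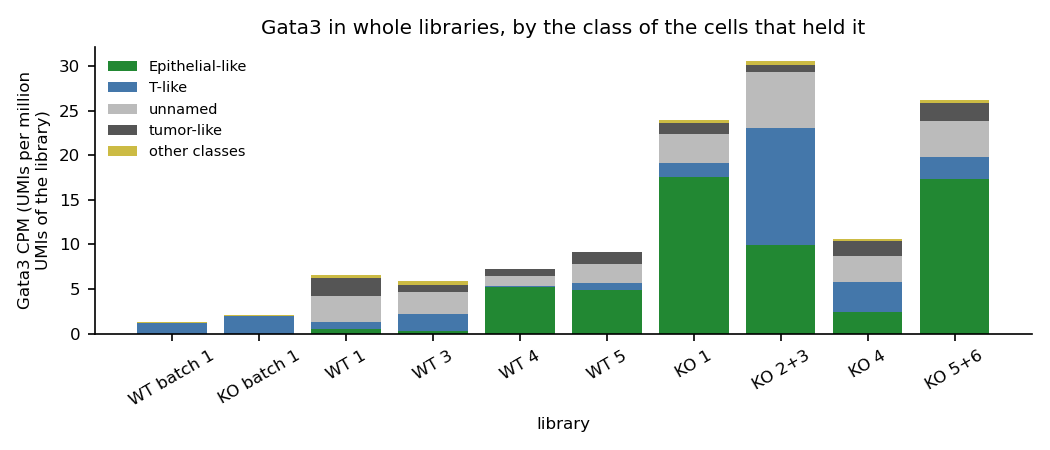
Gata3 UMIs per 1000000 UMIs of each whole library (CPM), stacked by the class of the cells that held them. The KO libraries of batch 2 reach 10.5 to 30.6 and the WT libraries 5.93 to 9.19, and the epithelial-like part is 17.6 in KO 1 and 17.3 in KO 5+6, while the T-like part is 13.04 in KO 2+3.

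Epcam and Cdh1 were not called either. Epcam, of whose UMIs 89.0% lay in epithelial-like cells, stood at 0.272 CPM in batch 1 WT and at 1.05, 2.24, 6.66 and 2.79 in WT 1, 3, 4 and 5. In KO it stood at 0.450 in batch 1 and at 18.2, 4.02, 4.12 and 11.6 in KO 1, 2+3, 4 and 5+6. WT 4, the WT library with the most epithelial-like cells, lay above KO 2+3 and KO 4. The difference was 1.44 ± 0.51 (SE, log2, unadjusted p = 0.012, edgeR adjusted p = 0.45), and it was 0.91 without KO 1 and 2.07 without WT 4. For Cdh1 it was 1.07 ± 0.32 (unadjusted p = 0.0038, edgeR adjusted p = 0.44), and without the epithelial-like cells 0.83.

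The remaining genes were also not called in whole libraries. The differences were 0.84 ± 0.39 for Cdh2, 1.23 ± 0.71 for Krt14, 0.14 ± 0.15 for Vim, -0.01 ± 0.16 for Krt8 and -0.35 ± 0.12 for Zeb1 (SE, log2), with edgeR adjusted p between 0.46 and 0.99. Krt18 and Krt5 were not tested. Of 14294 genes 0 (0%) were called by edgeR and 2 by DESeq2 (Gata3 and March1), and 1318 (9.22%) had an unadjusted p under 0.05. Of the 8 genes tested, 5 had one, namely Gata3, Epcam, Cdh1 and Cdh2 with higher values in KO and Zeb1 with lower values.

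Lists over whole libraries were counted in the same way. Of the epithelial program, 17 of 27 genes were tested and 0 passed, with 13 higher in KO and a median of 0.14 (log2) beside -0.0035 over all genes. Of these, 6 had an unadjusted p under 0.05, beside 9.22% of all genes, and none was called. The desmosome gene Dsp (1.11 ± 0.39), Cd24a (1.08 ± 0.41), Trp63 (0.87 ± 0.40) and Grhl2 (0.72 ± 0.30) were higher in KO (SE, log2). Their edgeR adjusted p values were 0.46, 0.48, 0.53 and 0.50. The junction genes Tjp1 (-0.32 ± 0.13) and Ctnna1 (-0.25 ± 0.12) were lower (edgeR adjusted p = 0.50 and 0.53). Of the mesenchymal program, 25 were tested, 0 passed and 13 were higher, with a median of 0.014. The 4 of them with an unadjusted p under 0.05 (Tgfb2, Tcf4, Prrx1 and Col3a1) were lower in KO. Of the T helper genes, 11 were tested, 0 passed and 7 were higher, with a median of 0.42, where Tbx21, the regulator of the T helper 1 program, had 1.53 ± 0.39 (SE, log2, edgeR adjusted p = 0.40).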

How the data were processed

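For each of 10 libraries the authors deposited a matrix of raw UMI counts, genes by barcodes, made with Cell Ranger 7.1.0 on mm10 according to the submitters' processing notes, empty droplets included. Whether intronic reads were counted is not given in the sources used here. Genes and lists were chosen with earlier results of these data known. Barcodes outside 200 to 7000 detected genes or above 10% mitochondrial UMIs were dropped, and the rest were clustered without the 10 genes and Actb (2000 genes, 30 components, 15 neighbours, Leiden resolution 1; scanpy 1.11.5, leidenalg 0.10.2, Python 3.11.15). A name needed at least 3 listed markers, 2-fold over reference clusters and in 2% of cells. These limits were chosen with the clusters in view, before any comparison of WT with KO. No doublet caller was run, and clusters that did not meet the rule stayed unnamed.

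UMIs were summed per library, since cells are not replicates, and tested by edgeR 4.0.16 in R 4.3.3 (quasi-likelihood, TMM, filterByExpr, batch as covariate, Benjamini-Hochberg adjustment), where a library needed at least 10 cells of the class. DESeq2 1.42.0 was an alternative. The fits were tested on simulated data. Of genes simulated with a log2 change of 1, 80% were called in tumor-like cells and 74% in T-like cells. In epithelial-like cells 37% were called, and in whole libraries 70%. Each fit gave between 6 and 13 false calls. Means ± SD are of CPM (UMIs per 1000000 UMIs) per library. Replicates are libraries of separate tumors, or pools of 2. Named were the 10 genes, the 3 genes of most similar pattern for each of them with at least 50 CPM in 1 class (log2 of the level + 10, centred within batch), and any called gene of the lists, of which there was none. A few items these rules name are not reported here. Other genes of the lists were named after their values were seen. Krt8 has an annotated pseudogene, Krt8-ps, that the counts do not list, so its reads could be shared. The study's tests over cells and its integrated annotation were not used.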

Additional observations from a re-analysis of the deposited data

Results flagged for a closer look

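Of 42 groups of libraries examined, 3 held a library far from the others of its group, and chance gives about 1 in 20. Krt8 in WT tumor-like cells stood at 171.9 CPM in batch 1 and at 47.1 to 59.1 in the other 4 libraries. Krt8 in whole WT libraries stood at 144.5 in batch 1 and at 45.7 to 55.4 in the others. Cdh2 in whole KO libraries stood at 0 in batch 1 and at 3.06 to 4.29 in the others. Each of these libraries is from batch 1, which differs from batch 2 in depth per cell and sequencer.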

How the results depend on the processing

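Of 384 recomputed log2 differences of the 10 genes, 352 kept their direction and their side of the threshold, 28 turned direction and 4 became called. No filter on low counts gave 42 called genes in tumor-like cells, 1 in epithelial-like cells (Col1a1) and 241 in whole libraries, where Gata3 had 1.43 (adjusted p = 9.5e-10) and Epcam 1.41 (adjusted p = 3.2e-05) by edgeR. Without the pooled KO libraries 1 gene (Hbb-bs) was called in tumor-like cells and 1 in whole libraries, and DESeq2 called 2 in whole libraries. With 1 library left out, the calls ran from 0 to 2 in tumor-like cells, from 0 to 5 in epithelial-like cells (5 without WT 5) and from 0 to 1 in whole libraries, and stayed at 0 in T-like cells.

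Differences that turned direction were small, rested on few UMIs or came from the epithelial-like cells with their 2 WT libraries, and the cause was not tested. Gata3 in tumor-like cells was -0.0643 at resolution 0.5 and ran from -0.0323 to 0.47 with 1 library left out, and Krt8 there from -0.10 to 0.18. Zeb1 in T-like cells was 0.20 without a filter and 0.20 without pooled libraries and ran from -0.21 to 0.0416. In epithelial-like cells Gata3, with 391 UMIs, was -0.19 without pooled libraries and ran from -0.36 without WT 4 to 1.14 without WT 5. Vim was 0.33 there with at least 500 genes per barcode and ran from -0.56 to 0.37, and Zeb1 ran from -1.60 to 5.29, the last set by a group at 0 UMIs. Krt8 in whole libraries was 0.0541 in batch 2 alone, 0.0547 without pooled libraries, 0.0412 with at least 500 genes, 0.0037 without epithelial-like cells and 0.0186 without T-like cells too, and ran from -0.19 to 0.0867.

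The co-detection of Krt8 and Vim ran from 7.27 to 8.27 points with 1 library left out, and Krt8 and Zeb1 from -1.33 to -0.41. Krt8 and Zeb1 gave 0.14 points at 300 UMIs and 10.95 without thinning, and Zeb1 and Vim gave 0.0457 and 7.05. Zeb1 and Vim fell short of the threshold at resolution 0.5 (-0.81 points) and under another thinning (-0.67). The pair passed it under a further thinning (-1.87, adjusted exact permutation p = 0.0234) and in batch 2 alone (-2.64, 0.0117). With 1 library left out it ran from -2.89 to -2 with adjusted exact permutation p up to 0.0586. The Krt8 and Vim difference was 6.33 and 6.58 points under other thinnings, with 8 and 9 of 10 libraries higher and lowest values of -4.46 and -6.58. At resolution 0.5 it was 7.87 points, with 9 of 10 libraries higher and a lowest value of -5.32.

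WT and KO libraries of batch 2 share the numbers 1 and 4. Deviations of WT 1 and KO 1 correlated at r = -0.19 and those of WT 4 and KO 4 at -0.21 across genes. Libraries with unlike numbers ran from -0.14 (WT 5 and KO 2+3) to 0.265 (WT 1 and KO 4). No pairing was seen, but so few libraries cannot decide whether the numbers mark pairs. With the number as a replicate block 0 genes were called in each of the 4 comparisons, and of the 10 genes' differences Zeb1 in epithelial-like cells turned to 0.60. Epithelial-like cells lay in 1 batch, so no fit without batch 1 or without the batch term was made there, and at least 500 genes per barcode left too few T-like cells. The depth of batch 2 limits what can be said of Krt18, Krt5, Krt14, Epcam, Cdh1, Cdh2 and Gata3 in tumor-like cells.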
